A study of Homo sapiens with 8 samples.

Results

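EGR and AP-1 immediate-early genes were followed in 2 human acute myeloid leukaemia cell lines after knockdown of ALKBH5, which encodes an enzyme that removes the m6A methyl mark from RNA. The set was fixed by name, with earlier results of these data known. It holds 10 genes: EGR1, EGR2, EGR3, FOS, FOSB, FOSL1, JUN, JUNB, JUND and IER2. All 10 were found among the 26830 gene symbols of the table, and all 10 were among the 14302 genes tested, which reached at least 1 TPM in at least 2 libraries. TPM, a share of a library's transcripts scaled for gene length, allows levels of different genes to be compared within a library, while sequencing depth is unknown. NOMO-1 and MOLM-13 are established lines, each carrying an MLL fusion gene. There were 2 libraries in each of 4 groups (n = 2 throughout): NOMO-1 shNS (replicates 1 and 3), NOMO-1 shALKBH5 (replicates 2 and 3), MOLM-13 shNS (replicates 1 and 3) and MOLM-13 shALKBH5 (replicates 1 and 3). shNS is the control hairpin, shALKBH5 is a single hairpin numbered 1, and all groups share viral delivery and puromycin selection. The length of that selection is 4 days in the series text and 1 week in the sample protocols, which also mention FTO and drugs that no sample label carries. Separate cultures are not stated for the libraries of a group, so the p-values cover the spread between libraries, which may be technical.

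Immediate-early genes are transcribed within minutes of a stimulus, without new protein synthesis, because the factors that serve their promoters are already present. The RAS-ERK kinase cascade phosphorylates ternary complex factors, which sit with serum response factor (SRF) on CArG boxes, and related kinase routes act through CREB on cyclic AMP response elements. EGR1, EGR2 and EGR3 encode zinc-finger transcription factors. FOS, FOSB and FOSL1 encode proteins that bind DNA as partners of a JUN protein, and JUN, JUNB and JUND encode those partners, which together form AP-1. IER2 encodes a nuclear protein of the same rapid response. In myeloid cells EGR and AP-1 factors are known for their part in monocyte and macrophage differentiation.

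The sequences before the RefSeq start of EGR1, EGR2 and FOSB are shown as examples that carry elements through which such genes are known to respond. Matches in the other windows searched are described below without their sequences. RefSeq promoters (GRCh38.p14) matched 8 of the 10 genes by symbol, all but EGR3 and FOSL1. The 250 bases before the RefSeq start, called the start here, were searched on both strands. GENCODE places some gene starts elsewhere. By its positions the JUN and EGR2 windows lie wholly inside the gene, and the FOS window runs past the gene start. For JUN and EGR2 the bases before the GENCODE start were therefore not searched, and for FOS only some were. Capitals mark CArG boxes and CGTCA, the half-site of the cyclic AMP response element, which reads TGACG on the other strand. The windows lie at chr5:138465229-138465478 (plus strand) for EGR1, chr10:62816367-62816616 (minus strand) for EGR2 and chr19:45467746-45467995 (plus strand) for FOSB.
EGR1: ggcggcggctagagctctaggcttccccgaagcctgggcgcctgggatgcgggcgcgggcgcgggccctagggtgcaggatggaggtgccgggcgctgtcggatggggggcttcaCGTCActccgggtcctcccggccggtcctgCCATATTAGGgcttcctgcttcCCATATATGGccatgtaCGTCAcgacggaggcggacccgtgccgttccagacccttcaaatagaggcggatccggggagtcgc
EGR2: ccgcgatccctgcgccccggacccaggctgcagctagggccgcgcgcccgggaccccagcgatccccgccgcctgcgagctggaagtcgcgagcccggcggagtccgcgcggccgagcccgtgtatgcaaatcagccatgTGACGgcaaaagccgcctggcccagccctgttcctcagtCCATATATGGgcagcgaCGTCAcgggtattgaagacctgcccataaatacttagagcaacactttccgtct
FOSB: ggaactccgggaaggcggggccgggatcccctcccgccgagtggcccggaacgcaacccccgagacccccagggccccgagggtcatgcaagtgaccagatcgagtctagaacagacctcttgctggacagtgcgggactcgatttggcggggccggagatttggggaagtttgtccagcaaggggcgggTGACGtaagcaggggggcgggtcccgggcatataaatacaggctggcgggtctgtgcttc

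EGR1 held 2 CArG boxes, whose first bases lay 105 and 83 bases before the start, and EGR2 held 1, at 71 bases. The other 6 windows had no match, and 1.16% of all 35116 promoters had one in a window of this length. Sites further upstream and looser forms of the CArG box were not searched, so these genes may still carry one. CGTCA was found in all 8 windows, against 21.2% of all promoters. The whole palindrome TGACGTCA, which contains CGTCA on each strand, occurred in JUND alone (1.65% of all promoters). TATAAA was found in FOS, FOSB and JUNB (10.7% of all promoters), and CCGGAA, a core bound by ETS factors, in FOSB and IER2 (14.5%). GCGNGGGCG, an EGR site, was in EGR1 alone of the 8 (8.41%), and the AP-1 site TGANTCA in 0 of the 8 windows (6.57%). The matches describe letters and not binding.

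Few facts of the libraries touch these genes. ALKBH5 was 4.86 times lower by group mean after knockdown in NOMO-1 and 5.45 times lower in MOLM-13. Replicate libraries differed little in 3 groups, with an SD of the log2 difference of 0.133 to 0.184 over 8804 genes, and more in MOLM-13 shALKBH5, with an SD of 0.53. The 9 myeloid markers were all detected in both lines, and their values by group stand beside the knockdown results. CD14 stood under 1 TPM in every NOMO-1 library. Lymphoid (5 genes), megakaryocyte (3) and epithelial (3) markers each summed to at most 4.06 TPM in any library, with MS4A1, PF4 and EPCAM listed at 0 throughout. Of the erythroid markers, HBA1 was listed at 0, HBA2 reached 0.2 TPM and HBB was listed at 14 TPM in MOLM-13 shALKBH5 replicate 3 alone.

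In the control libraries the 10 genes covered a wide range of levels. The order in NOMO-1 shNS was JUND (143 and 154 TPM in replicates 1 and 3), IER2 (131 and 134), JUNB (102 and 115), EGR1 (102 and 104), FOS (82.9 and 71.8), JUN (61.1 and 62), FOSB (29.6 and 22.9), FOSL1 (13.7 and 11.9), EGR3 (3.32 and 2.61) and EGR2 (1.75 and 2.27). Of neighbours in that order, JUNB and EGR1 overlapped. The order in MOLM-13 shNS was JUND (391 and 411 TPM), JUNB (177 and 169), IER2 (156 and 158), EGR1 (152 and 141), FOS (144 and 137), FOSB (32.9 and 24.7), JUN (28.4 and 24.7), FOSL1 (16.5 and 17.1), EGR2 (4.8 and 3.6) and EGR3 (4.08 and 2.51). Here EGR1 overlapped with FOS, FOSB with JUN, and EGR2 with EGR3. By group mean EGR1 stood at the 88.6th percentile of genes tested in NOMO-1 shNS and the 94.3rd in MOLM-13 shNS, while EGR2 and EGR3 were low in both.

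**Figure D1:**
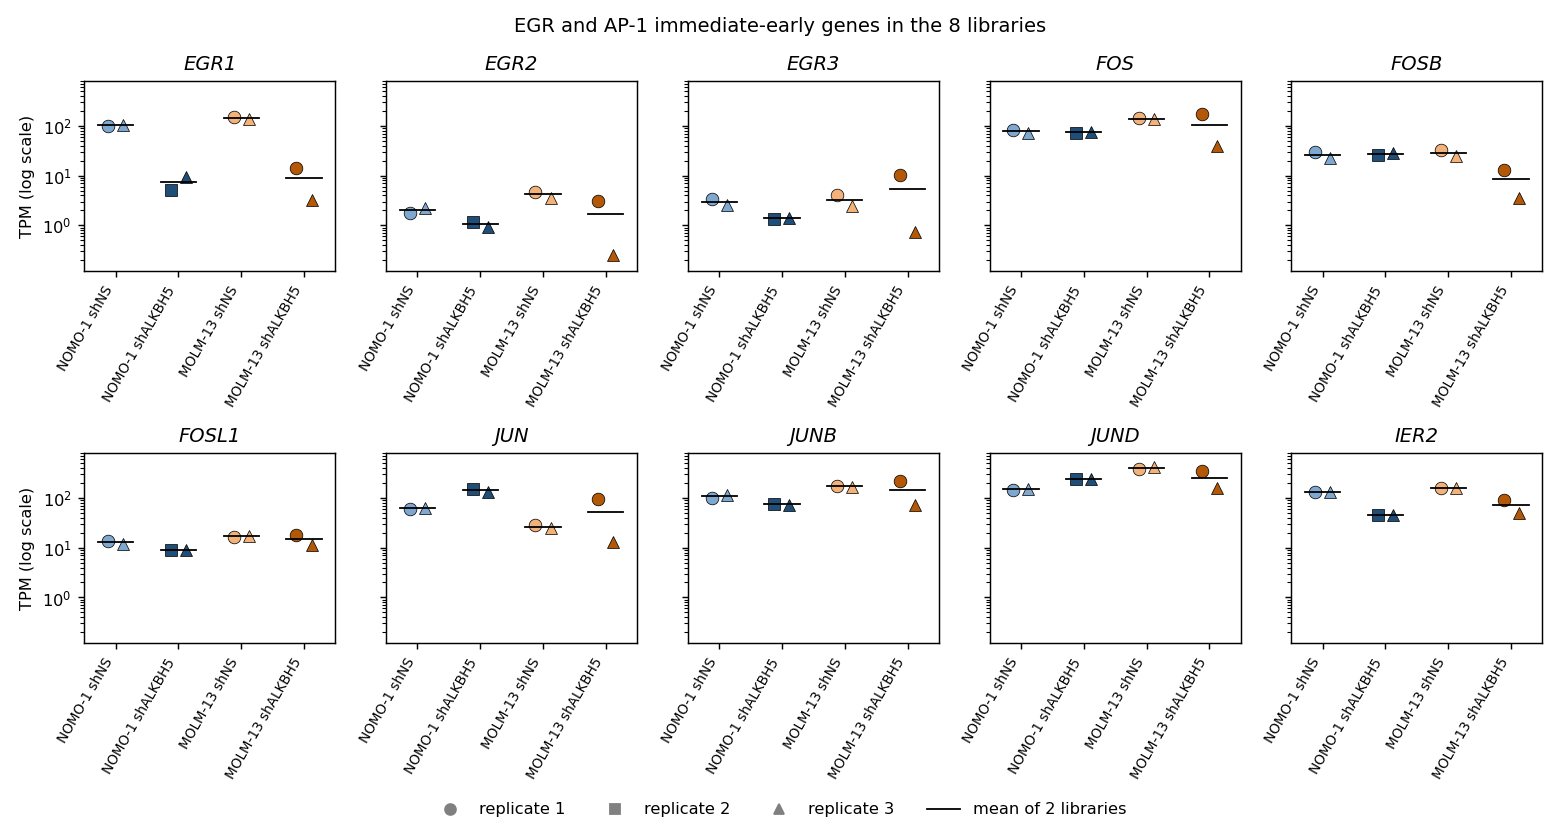
TPM (log axis) of each of the 10 genes in the 8 libraries, by group on the x axis, with symbols for the replicate number and a line at the group mean. EGR1 and IER2 lie lower after knockdown in both lines, and the MOLM-13 shALKBH5 libraries lie far apart for EGR3, FOS, JUN and JUNB.

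The first comparison set shALKBH5 against shNS in NOMO-1, where EGR1 and IER2 fell and no other gene of the set passed the test. EGR1, a common readout of ERK signalling (chromosome 5, 138465490 to 138469315, GRCh38, protein-coding in GENCODE release 29), measured 102 and 104 TPM in shNS and 5.1 and 9.61 TPM in shALKBH5 replicates 2 and 3. Both knockdown libraries lay far below both controls, 14 times lower by group mean. The log2 fold change, on the log2(TPM + 1) scale used for every fold change and SE here, was -3.69 (SE 0.58, limma adjusted p = 0.00353). IER2 (chromosome 19, 13150415 to 13154908) measured 131 and 134 TPM in shNS and 44.6 and 45.1 TPM in shALKBH5. It was 2.96 times lower by group mean, with the libraries of each group close together (log2 fold change -1.54, SE 0.25, limma adjusted p = 0.00398).

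The count of 2 of 10 genes stands against 43.6% of all genes tested in this comparison, 15% called lower and 28.6% called higher. The median log2 fold change was -0.5 over the 10 genes and 0.16 over all genes tested. Both calls held in each of 17 alternative analyses, with limma adjusted p up to 0.0323 for EGR1 and 0.0331 for IER2.

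Some myeloid markers changed with the knockdown in NOMO-1. The sum of the 9 was 1428 and 1460 TPM in shNS and 3172 and 3126 TPM in shALKBH5, with no overlap. LYZ and CD68 gave most of that rise. Of the 9, 3 were called higher (LYZ, CD68, CSF1R) and 2 lower (CD33, CEBPA), against 28.6% and 15% of all genes tested. The median log2 fold change of the markers was 0.06, against 0.16 over all genes tested. LYZ, the lysozyme gene, measured 463 and 499.9 TPM in shNS and 1532 and 1507 TPM in shALKBH5 (log2 fold change 1.66, limma adjusted p = 0.00165). CD68, a macrophage marker gene, measured 326 and 320.4 TPM in shNS and 1054 and 1002 TPM in shALKBH5 (1.67, limma adjusted p = 0.000316). The part of these changes in the values of EGR1 and IER2 was not tested.

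EGR2 and EGR3 were low before and after. EGR2 measured 1.75 and 2.27 TPM in shNS and 1.17 and 0.93 TPM in shALKBH5, and EGR3 measured 3.32 and 2.61 TPM in shNS and 1.33 and 1.43 TPM in shALKBH5. For both genes the groups did not overlap, with knockdown below control, as for 30.5% of all genes tested. The log2 fold changes were -0.55 (SE 0.51, limma adjusted p = 0.43) and -0.73 (SE 0.78, limma adjusted p = 0.498).

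The FOS genes showed small differences in NOMO-1. FOS, the founding AP-1 partner, measured 82.9 and 71.8 TPM in shNS and 73.7 and 75.9 TPM in shALKBH5, and the groups overlapped (log2 fold change -0.04, SE 0.61, limma adjusted p = 0.977). FOSB measured 29.6 and 22.9 against 25.9 and 29.1 TPM, also overlapping (0.08, SE 0.49, limma adjusted p = 0.932), and its sign turned under median-of-ratios and quantile scaling. FOSL1, which encodes FRA-1, measured 13.7 and 11.9 against 8.97 and 8.89 TPM (-0.47, SE 0.2, limma adjusted p = 0.11). Its knockdown libraries lay below both controls, as for 30.5% of all genes tested. It passed under median-of-ratios scaling (log2 fold change -0.66, limma adjusted p = 0.0047) and did not pass with no filter on low values (limma adjusted p = 0.163).

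Within the JUN genes the values parted in NOMO-1. JUN (chromosome 1, 58780788 to 58784327) measured 61.1 and 62 TPM in shNS and 154 and 134 TPM in shALKBH5, 2.34 times higher by group mean. JUND (chromosome 19, 18279760 to 18281622) measured 143 and 154 and then 244 and 239 TPM, 1.63 times higher. JUNB (chromosome 19, 12791496 to 12793315) went the other way, with 102 and 115 TPM in shNS and 76.4 and 73.2 TPM in shALKBH5. None of these 3 genes overlapped between the groups. Of all genes tested 52.1% had both knockdown libraries above both controls and 30.5% had both below. The log2 fold changes were 1.21 for JUN (SE 0.78, limma adjusted p = 0.261), 0.7 for JUND (SE 0.32, limma adjusted p = 0.131) and -0.53 for JUNB (SE 0.45, limma adjusted p = 0.394).

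The spread of each gene was estimated over all 4 groups, so the distance between the MOLM-13 knockdown libraries entered the NOMO-1 tests. With NOMO-1 fitted alone 8 of the 10 genes passed (63.8% of all genes tested), 2 higher (JUN and JUND, against 41.2%) and 6 lower (against 22.6%). The limma adjusted p was then 0.00237 for JUN, 0.00255 for JUND, 0.00968 for JUNB, 0.0218 for FOSL1, 0.0305 for EGR2 and 0.0126 for EGR3. Over all alternatives it reached 0.5 for JUN, 0.337 for JUND, 0.648 for JUNB, 0.7 for EGR2 and 0.724 for EGR3. With library weights 8 also passed, against 67.9% of all genes tested. In the values themselves 6 of 10 genes had both knockdown libraries below both controls (30.5% of all genes tested) and 2 had both above (52.1%).

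**Figure D2:**
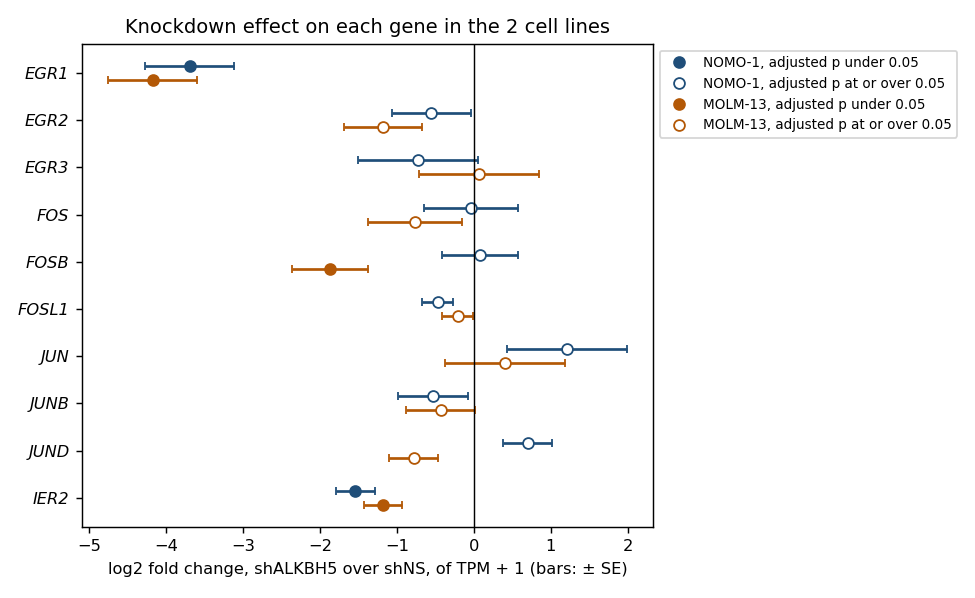
Log2 fold change of TPM + 1 (shALKBH5 over shNS, x axis) with its SE for each gene in NOMO-1 and MOLM-13; filled symbols passed the limma threshold of 0.05. EGR1 and IER2 are filled in both lines and FOSB in MOLM-13.

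The second comparison set shALKBH5 against shNS in MOLM-13, where EGR1, IER2 and FOSB fell. EGR1 measured 152 and 141 TPM in shNS and 14.5 and 3.29 TPM in shALKBH5 replicates 1 and 3. It was 16.4 times lower by group mean, although the knockdown libraries differed 4.42-fold from each other (log2 fold change -4.17, SE 0.58, limma adjusted p = 0.00266). IER2 measured 156 and 158 TPM in shNS and 92.3 and 51.1 TPM in shALKBH5, 2.19 times lower after knockdown (-1.18, SE 0.25, limma adjusted p = 0.0118). FOSB (chromosome 19, 45467995 to 45475179) measured 32.9 and 24.7 TPM in shNS and 13.2 and 3.59 TPM in shALKBH5, 3.44 times lower (-1.87, SE 0.49, limma adjusted p = 0.0246). For all 3 genes both knockdown libraries lay below both controls, as for 46.2% of all genes tested.

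The count of 3 of 10 genes stands against 41.8% of all genes tested, 31.2% called lower and 10.6% called higher. EGR1 and IER2, 2 of the 10, were called lower in both lines, against 10.4% of all genes tested. The median log2 fold change in MOLM-13 was -0.77 over the 10 genes and -0.18 over all genes tested. EGR1 passed in all 17 alternatives (limma adjusted p up to 0.0498), IER2 in 14 and FOSB in 10. With MOLM-13 fitted alone EGR1 was the 1 gene of 10 that passed (11.8% of all genes tested), while the limma adjusted p was 0.0988 for IER2 and 0.134 for FOSB, the highest over their alternatives. Without shNS replicate 1 it was 0.0672 for IER2 and 0.129 for FOSB, and without shNS replicate 3 0.0678 and 0.0788. FOSB also missed the threshold without NOMO-1 shALKBH5 replicate 2 (0.0534) or replicate 3 (0.0534), with library weights (0.0888) and with no filter on low values (0.0513).

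The other 7 genes did not pass in MOLM-13, where the knockdown libraries stood far apart. EGR3 measured 4.08 and 2.51 TPM in shNS and 10.2 and 0.74 TPM in shALKBH5 replicates 1 and 3, a 13.9-fold difference between the latter. JUN measured 28.4 and 24.7 TPM in shNS and 93.6 and 13.1 TPM in shALKBH5. FOS measured 144 and 137 TPM in shNS and 173 and 38.8 TPM in shALKBH5. All 3 genes were above both controls in replicate 1 and below both in replicate 3.

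JUNB and FOSL1 had the same order. JUNB measured 177 and 169 TPM in shNS and 221 and 73.7 TPM in shALKBH5, and FOSL1 16.5 and 17.1 TPM in shNS and 18.1 and 11.4 TPM in shALKBH5. EGR2, with 3.13 and 0.25 TPM against 4.8 and 3.6 in shNS, and JUND, with 344 and 159 TPM against 391 and 411, lay below both controls in each knockdown library. The limma adjusted p was 0.11 for EGR2 (log2 fold change -1.18, SE 0.51), 0.102 for JUND (-0.78, SE 0.32), 0.358 for FOS, 0.453 for FOSL1, 0.49 for JUNB, 0.717 for JUN and 0.966 for EGR3. In all, 5 of 10 genes had both knockdown libraries below both controls (46.2% of all genes tested) and 0 had both above (21.3%).

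All 10 genes were higher in replicate 1 than in replicate 3 of MOLM-13 shALKBH5, as were 76.3% of all genes tested. Replicate 3 lay below both controls for 10 of 10 genes (64.9% of all genes tested) and above both for 0 (26.2%). Replicate 1 lay below both for 5 (49.8%) and above both for the other 5 (39.7%). With replicate 3 as the only knockdown library, assumed to vary like the other groups, all 10 genes passed as lower, against 52% of all genes tested. JUN was then at -0.96 and EGR3 at -1.28 on the log2 scale (limma adjusted p = 0.000813 and 0.00582, and up to 0.87 and 1 over the alternatives). With replicate 1 as the only knockdown library 8 of 10 passed (58.1% of all genes tested). JUN was then at 1.78, EGR3 at 1.41, JUNB at 0.36 and FOS at 0.3, and EGR1 at -3.24, FOSB at -1.06, IER2 at -0.76 and JUND at -0.22.

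**Figure D3:**
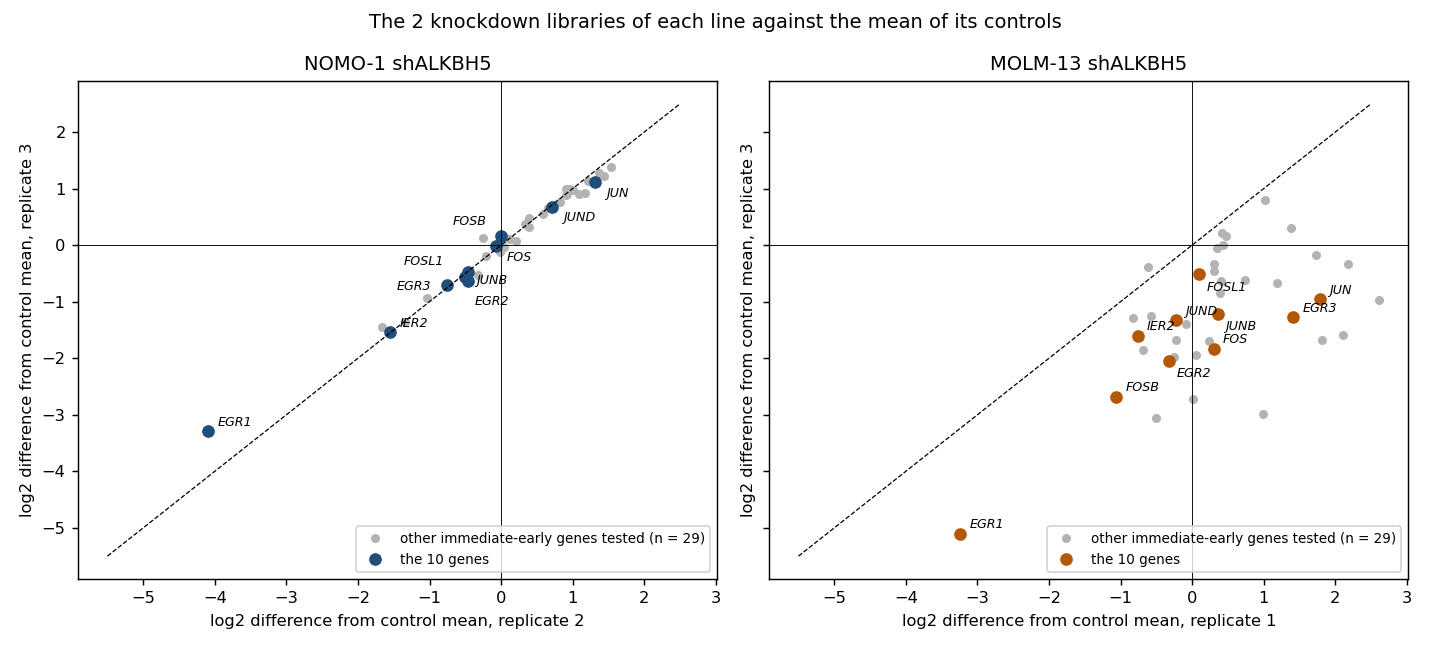
Log2 difference of each knockdown library from the mean of its controls (TPM + 1), with 1 knockdown library of a line on each axis, for the 10 genes and for 29 other immediate-early genes tested; the dashed line marks equality. NOMO-1 genes lie along the line, and in MOLM-13 the 10 genes lie to the side of lower values in replicate 3.

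Other values moved with the MOLM-13 libraries. The summed level of 15 interferon-stimulated genes was 186 and 173 TPM in the MOLM-13 controls and 1864 and 96.8 TPM in shALKBH5 replicates 1 and 3. Of the 12 tested, 12 were above both controls in replicate 1 and 11 below both in replicate 3. The sum of 7 RNAs without a poly(A) tail was 222 and 520.4 TPM in the controls and 4536 and 9262 TPM in shALKBH5. The myeloid marker sum was 10100 and 9486 TPM in the controls and 20560 and 13210 TPM in shALKBH5, of which LYZ gave 9126 and 8493 and then 19263 and 12121 TPM. Of the 9 markers 3 were called higher in MOLM-13 (LYZ, CD68, CD33) and 2 lower, against 10.6% and 31.2% of all genes tested. The 2 lower were PTPRC, the CD45 gene, and ITGAM, an integrin gene. PTPRC measured 184 and 171 TPM in shNS and 119 and 64.5 TPM in shALKBH5 (limma adjusted p = 0.0243). ITGAM measured 17.4 and 16.7 and then 13.2 and 9.09 TPM (limma adjusted p = 0.0478). The part of each in the values of the immediate-early genes was not tested. Fewer cells that express a gene and less RNA per cell cannot be told apart in these bulk samples.

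A test of the difference between the lines' knockdown effects called 1 gene of the 10, JUND, against 34.6% of all genes tested. Its log2 fold change was 0.7 in NOMO-1 and -0.78 in MOLM-13, a difference of 1.47 (SE 0.46, limma adjusted p = 0.0496). Both NOMO-1 knockdown libraries were above their controls (52.1% of all genes tested) and both MOLM-13 knockdown libraries below theirs (46.2%). The call ended in 10 of 16 alternatives (limma adjusted p up to 0.142), among them the omission of any 1 control or NOMO-1 knockdown library and median-of-ratios scaling (difference 0.96, adjusted p = 0.0544). For FOSB, which passed in MOLM-13 and not in NOMO-1, the difference was 1.95 (SE 0.7, limma adjusted p = 0.0725, and 0.00056 to 0.199 over the alternatives). It passed without MOLM-13 shALKBH5 replicate 1 (2.76) and without replicate 3 (1.13). The differences for EGR1 (0.48, SE 0.82, limma adjusted p = 0.675) and IER2 (-0.36, SE 0.35, limma adjusted p = 0.45) did not pass. Under median-of-ratios scaling IER2 passed (-0.86, limma adjusted p = 0.0205), as did FOSL1 (-0.72, 0.0199), and both passed under quantile scaling (-0.81 and -0.77) and without MOLM-13 shALKBH5 replicate 3 (-0.79 and -0.57). Over the alternatives the limma adjusted p ran from 0.000357 to 0.595 for IER2 and from 0.0106 to 0.763 for FOSL1. EGR1 passed without MOLM-13 shALKBH5 replicate 1 (1.41). With all libraries the differences for the other 6 genes had limma adjusted p from 0.511 (FOSL1) to 0.921 (JUNB).

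Between the control libraries JUND was the 1 gene of 10 called, against 59.8% of all genes tested. It was 2.7 times higher by group mean in MOLM-13 than in NOMO-1 (log2 difference NOMO-1 minus MOLM-13 of -1.43, SE 0.32, limma adjusted p = 0.00912). The call ended without NOMO-1 shNS replicate 1 (0.0528) and without MOLM-13 shNS replicate 3 (0.0506). With the 4 control libraries fitted alone 8 of 10 passed (79.5% of all genes tested), 7 lower in NOMO-1 and JUN higher, and with library weights also 8 (81.7%). JUN was 2.32 times higher by group mean in NOMO-1, with a limma adjusted p of 0.233 over all libraries and 0.000318 with the controls alone, and up to 0.439 over the alternatives.

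The make-up of the JUN transcripts differed between the controls of the lines and, in NOMO-1, between knockdown and control libraries. In MOLM-13 shALKBH5 replicate 3 stood near its controls and replicate 1 stood apart. JUN gave 20% and 18.7% of the summed JUN, JUNB and JUND level in NOMO-1 shNS replicates 1 and 3, and 32.4% and 30% in shALKBH5 replicates 2 and 3. JUNB gave 33.3% and 34.7% in shNS and 16.1% and 16.4% in shALKBH5. In MOLM-13 the share of JUN was 4.76% and 4.09% in shNS, 14.2% in shALKBH5 replicate 1 and 5.34% in replicate 3. The share of JUNB there was 29.7% and 27.9% in shNS and 33.6% and 30% in shALKBH5. JUND gave 46.7% and 46.6% in NOMO-1 shNS and 51.4% and 53.6% in NOMO-1 shALKBH5. In MOLM-13 it gave 65.6% and 68% in shNS and 52.2% and 64.6% in shALKBH5. These shares are descriptions and carry no test.

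**Figure D4:**
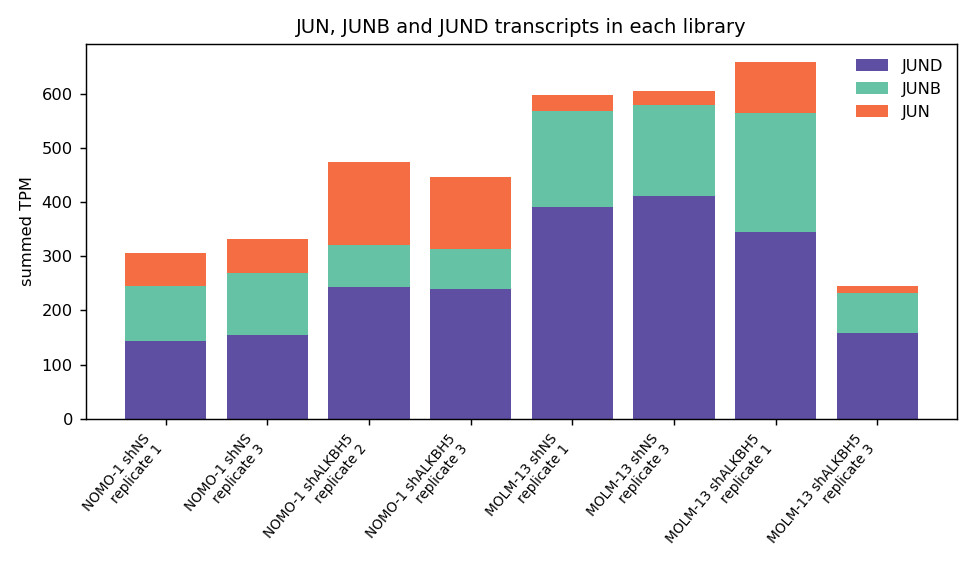
Summed TPM of JUND, JUNB and JUN (y axis, from 0) in each of the 8 libraries, stacked by gene. The share of JUN is larger in both NOMO-1 shALKBH5 libraries than in the NOMO-1 controls, and the MOLM-13 shALKBH5 libraries have sums of 659 and 246 TPM.

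Other lists of the pathway are set against the shares of all genes tested, which in NOMO-1 were 28.6% higher and 15% lower and in MOLM-13 10.6% higher and 31.2% lower. These lists were chosen with earlier results of these data known, so their counts are descriptions and no independent test. Other immediate-early genes gave calls in both directions. Of 33 listed genes 29 were tested, and 7 were higher and 2 lower in NOMO-1, and 1 higher and 4 lower in MOLM-13 (median log2 fold change 0.43 and -0.08, against 0.16 and -0.18 over all genes tested). ZFP36L2, which encodes an mRNA-decay protein, fell in both lines, from 389 and 390.1 to 123 and 143 TPM in NOMO-1 (log2 fold change -1.55, limma adjusted p = 0.000948) and from 372 and 379 to 211 and 153 TPM in MOLM-13 (-1.06, limma adjusted p = 0.00385). FOSL2, the FRA-2 gene, rose in NOMO-1 from 35 and 36.7 to 98.2 and 84.8 TPM (1.32, limma adjusted p = 0.00127), and IER5L fell there (-0.99, limma adjusted p = 0.00243). In MOLM-13 RHOB, a small GTPase gene, rose (0.91, limma adjusted p = 0.00292) and BTG1, an antiproliferative gene, fell (-0.92, limma adjusted p = 0.0151). BTG1 rose in NOMO-1 (0.66, limma adjusted p = 0.0446), and its line difference passed (1.57, limma adjusted p = 0.0118).

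The MOLM-13 libraries parted for these genes too. Higher in shALKBH5 replicate 1 than in replicate 3 were 28 of 29, against 76.3% of all genes tested. ATF3 measured 12.9 and 10.2 TPM in shNS and 43 and 2.94 TPM in shALKBH5 replicates 1 and 3, and DUSP1, a MAP kinase phosphatase gene, 29.6 and 23.8 TPM in shNS and 53.5 and 2.48 TPM in shALKBH5. Without replicate 1, 2 of the 29 were higher and 20 lower in MOLM-13, and without replicate 3, 17 higher and 7 lower. Of all genes tested 14% were then higher and 52% lower without replicate 1, and 23.4% higher and 34.7% lower without replicate 3. With each line fitted alone 15 were higher and 5 lower in NOMO-1, against 41.2% and 22.6% of all genes tested. In MOLM-13 0 then passed, against 11.8% of all genes tested.

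Among 12 tested bZIP partners of AP-1, a list that shares FOSL2, ATF3 and MAFF with the one above, 5 were higher and 1 lower in NOMO-1, against 28.6% and 15% of all genes tested. In MOLM-13 0 passed with limma, against 41.8% of all genes tested, and 4 were higher with median-of-ratios scaling. MAFG, a small MAF protein gene, rose in NOMO-1 (from 31.3 and 30.7 to 63 and 61.9 TPM; limma adjusted p = 0.00136) and BATF3 fell (from 26.3 and 28 to 6.8 and 10.5 TPM; limma adjusted p = 0.00141). Of 3 EGR regulators tested 0 were higher and 1 lower in NOMO-1, and 0 higher and 2 lower in MOLM-13. NAB1, a corepressor of EGR proteins, fell in both lines, from 29.9 and 28.3 to 9.22 and 11.9 TPM in NOMO-1 and from 13.1 and 12.4 to 7.49 and 2.4 TPM in MOLM-13 (limma adjusted p = 0.0308 and 0.0348). WT1, a zinc-finger factor with a related DNA-binding domain, fell in MOLM-13 from 29.5 and 32.4 to 4.6 and 2.95 TPM (limma adjusted p = 0.000277).

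Of 14 SRF, ternary complex and CREB genes 2 were higher and 4 lower in NOMO-1, and 0 higher and 5 lower in MOLM-13. These 6 and 5 of 14 stand against 43.6% and 41.8% of all genes tested. ELK3, a ternary complex factor gene, fell in NOMO-1 from 62.8 and 58.7 to 23.8 and 25.2 TPM (limma adjusted p = 0.00635), and ELK1, another, in MOLM-13 from 13.4 and 14.1 to 8.55 and 3.57 TPM (limma adjusted p = 0.028) and in NOMO-1 (-1, limma adjusted p = 0.0433). CREM fell and CRTC1 rose in NOMO-1 (log2 fold change -0.84 and 0.82), and ATF1 and MKL2 fell in MOLM-13 (-0.76 and -0.5). Median-of-ratios scaling gave 3 higher and 3 lower in MOLM-13.

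Of 15 genes of the RAS-ERK route 5 were higher and 0 lower in NOMO-1, among them BRAF (from 13 and 13 to 26.9 and 27.9 TPM; limma adjusted p = 0.000723), RPS6KA2 (1.08) and RPS6KA1 (0.85), both genes of ERK-activated kinases. RPS6KA1 fell in MOLM-13 (-0.29, limma adjusted p = 0.0499), and its line difference passed (1.14, limma adjusted p = 0.00351). In MOLM-13 2 were higher and 4 lower, with NRAS from 74.9 and 73.7 to 32.5 and 16.2 TPM (limma adjusted p = 0.00595) and MAPK3, the ERK1 gene, at 0.57. The 5 of 15 higher in NOMO-1 stand against 28.6% of all genes tested, and the 4 of 15 lower in MOLM-13 against 31.2%. Under median-of-ratios scaling the split was 3 higher and 3 lower in NOMO-1, and 5 and 2 in MOLM-13. With MOLM-13 fitted alone 0 passed with limma in the RAS-ERK list and 0 in the SRF list.

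Of 12 JNK and p38 route genes 0 were higher and 1 lower in NOMO-1, and 2 higher and 5 lower in MOLM-13. Of all genes tested 43.6% were called in NOMO-1, and 10.6% higher and 31.2% lower in MOLM-13. MAP3K1, an upstream kinase of JNK, fell in both lines, from 25.3 and 25.4 to 18.1 and 20.3 TPM and from 67.1 and 65.2 to 35.3 and 37.3 TPM (limma adjusted p = 0.02 and 0.00137). MAPK9, the JNK2 gene, and MAPK11, a p38 gene, fell in MOLM-13 (-0.89 and -1.23). In NOMO-1 the count was 2 higher and 4 lower under median-of-ratios scaling, and with MOLM-13 fitted alone 1 gene was lower.

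Of a list of output and feedback genes of ERK signalling, 8 of 12 were lower and 1 higher in NOMO-1, and 6 lower and 1 higher in MOLM-13. Of all genes tested 15% and 31.2% were lower. Because the list was chosen with earlier results known, its distance from those shares is a description and no independent test. The median log2 fold change of the list was -1.68 and -1.01, against 0.16 and -0.18 over all genes tested. DUSP4, a MAP kinase phosphatase gene, fell from 21.2 and 19.9 to 2.33 and 3.05 TPM in NOMO-1 and from 10.1 and 9.36 to 3.15 and 2.5 TPM in MOLM-13 (limma adjusted p = 0.000316 and 0.000837). SPRY4, an inhibitor of receptor signalling to RAS, fell (-1.46 and -2.11 on the log2 scale), as did ETV4, an ETS factor gene (-3.89 and -2.69). With MOLM-13 fitted alone 4 of the 12 were lower and 0 higher, against 11.8% of all genes tested called in either direction. MOLM-13 shALKBH5 replicate 1 lay below both controls for 9 of the 12 (49.8% of all genes tested) and above both for 3 (39.7%). Replicate 3 lay below both for 11 (64.9%) and above both for 1 (26.2%).

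Of 17 tested genes with described EGR or AP-1 sites 1 was higher and 0 lower in NOMO-1, and 3 were higher and 2 lower in MOLM-13, against 43.6% and 41.8% of all genes tested called in either direction. PLAU, the urokinase gene, rose in MOLM-13 from 128 and 123 to 215 and 207 TPM (limma adjusted p = 0.00116). VIM, the vimentin gene, fell there (-0.96, limma adjusted p = 0.00421). With NOMO-1 fitted alone 7 were higher and 3 lower, against 41.2% and 22.6% of all genes tested. MOLM-13 shALKBH5 replicate 1 lay above both controls for 14 of the 17 (39.7% of all genes tested) and below both for 3 (49.8%). Replicate 3 lay above both for 3 (26.2%) and below both for 14 (64.9%).

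Over the 8 libraries the 10 genes formed 45 pairs, whose Pearson r of log2(TPM + 1) ran from -0.44 (FOSL1 and JUN) to 0.95 (EGR1 and IER2). These coefficients describe libraries that share a line, a hairpin and the distance between the MOLM-13 shALKBH5 libraries. FOSL1 and JUNB had r = 0.93, and EGR2 and FOS 0.91. The 3 genes most like EGR1 were SNRPE (r = 0.999, n = 8), NARF (0.998) and XRCC5 (0.997). SNRPE, which encodes a spliceosomal core protein, spanned a smaller range, from 142 and 142 TPM in NOMO-1 shNS to 51.5 and 58 TPM in shALKBH5. Those most like FOS were ARSB (0.992), ZNF317 (0.977) and PPIL2 (0.976), and those most like IER2 were ARHGDIB (0.993), TIMM50 (0.992) and RCL1 (0.992). JUN was most like POLDIP3 (0.998), DUSP5 (0.991) and RNF19B (0.991). DUSP5, a nuclear ERK phosphatase gene, measured 9.91 and 11.6 TPM in NOMO-1 shNS and 21.9 and 18.8 TPM in shALKBH5. In MOLM-13 it measured 5.67 and 5.33 TPM in shNS and 18.7 and 2.71 TPM in shALKBH5 replicates 1 and 3, the order seen for JUN.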

How the data were processed

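Poly(A) RNA of 8 libraries was analysed. The authors deposited 1 table of TPM per gene symbol, a unit read from its columns, which sum to 1000000 within rounding. The submitters' processing notes name STAR, RSEM and GRCh38, and no versions, annotation or strand setting is given in the sources used here. TPM holds no counts, so the count test was not run and there are no counting intervals. A rise of abundant RNAs lowers all other values of a library.

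Tests used limma 3.58.1 (R 4.3.3) on log2(TPM + 1) for the 14302 genes that reached 1 TPM in 2 or more libraries. The model had 1 mean per group over all 8 libraries, 4 residual and 2.29 prior degrees of freedom and an intensity trend. Tests were two-sided, with Benjamini-Hochberg adjustment over the 14302 genes and 0.05 as the threshold. There were 4 comparisons and 17 alternatives. The script was tested on simulated data that gave each gene 1 spread in all groups. That test does not cover the wider spread of MOLM-13 shALKBH5. Named genes were the 10 members, ALKBH5, the 3 called members of each other list with the smallest p in each line, and for EGR1, FOS, JUN and IER2 the 3 genes with the highest r. A few genes that this rule names are not reported here. ATF3, DUSP1 and the markers were named after their values were seen. Members and lists were chosen with earlier results of these data known. Gene positions come from GENCODE release 29 (GRCh38).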

Additional observations from a re-analysis of the deposited data

Results flagged for a closer look

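JUND was flagged because its knockdown effect differed between the lines: the log2 fold change in NOMO-1 minus that in MOLM-13 was 1.47 (SE 0.46, limma adjusted p = 0.0496). It was 0.7 in NOMO-1, with both knockdown libraries above both controls (52.1% of all genes tested), and -0.78 in MOLM-13, with both below (46.2%). The difference kept its sign in all 16 alternatives (0.92 to 2.03) and passed in 6 of them. Groups of 2 libraries are too small for a check of single outlying samples.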

How the results depend on the processing

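Counts of genes past the threshold that moved by over 1.5 times are given here. With library weights 9712 genes passed in NOMO-1 and 2818 in MOLM-13 in place of 6242 and 5972, and with MOLM-13 fitted alone 1684. Of the 10 genes, 8 passed in NOMO-1 with library weights and with NOMO-1 alone, and 4 with quantile scaling, in place of 2. In MOLM-13 1 passed with that line alone in place of 3. For the difference between lines 0 passed with a pseudocount of 0.1 or 0.5 or no filter, 2 with median-of-ratios scaling, 3 with quantile scaling and 2 with the replicate block (JUND and FOSB), in place of 1. Between controls 4 passed with either scaling, and 8 with library weights or the controls alone, in place of 1.

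Leaving out 1 library at a time, the counts ran from 3490 to 9745 in NOMO-1 (lowest without its shNS replicate 3, highest without MOLM-13 shALKBH5 replicate 1), from 2665 to 9439 in MOLM-13, from 1635 to 9661 for the difference and from 6480 to 11202 between controls. Of the 10 genes 2 to 8, 1 to 10, 0 to 7 and 0 to 7 passed. The lowest and highest log2 values were -0.15 and 0.06 for FOS and -0.1 and 0.25 for FOSB in NOMO-1. In MOLM-13 they were -1.28 and 1.41 for EGR3, -1.83 and 0.3 for FOS, -0.52 and 0.1 for FOSL1, -0.96 and 1.78 for JUN, and -1.22 and 0.36 for JUNB. For the difference they were -0.45 and 1.41 for EGR1, -0.23 and 1.5 for EGR2, -2.14 and 0.55 for EGR3, -0.34 and 1.79 for FOS, -0.57 and 0.05 for FOSL1, -0.57 and 2.17 for JUN, -0.88 and 0.69 for JUNB, and -0.79 and 0.06 for IER2. Between controls they were -0.36 and 0.17 for EGR3 and -0.33 and 0.07 for FOSB. Other sign changes were FOSB in NOMO-1 (-0.13 with median-of-ratios and -0.05 with quantile scaling) and, in MOLM-13, EGR3 (-0.16 and -0.02 with pseudocounts 0.1 and 0.5) and FOSL1 (0.07 and 0.16 with the 2 scalings). The cause was not tested.

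Median-of-ratios scaling moved the median of all genes from 0.16 to 0 in NOMO-1 and from -0.18 to 0.03 in MOLM-13. Among the genes called, and not all genes tested, the share that was higher went from 65.6% to 47.7% and from 25.3% to 47.8%. For the difference that share went from 85.8% to 52%, and between controls from 67.9% to 52.2%. Pairing by replicate number was not detected in MOLM-13 (correlation of deviations across genes 0.061). That check rests on the difference between the libraries of each group and cannot exclude pairing. With the replicate block 6534 genes passed in MOLM-13, 4 of the 10 among them, EGR2 included (limma adjusted p = 0.033). No paired analysis was possible in NOMO-1 because its groups share only replicate number 3. Counts for the other lists under 4 settings were added after the data were seen. Depth is unknown, so low genes (EGR2, EGR3) carry an unmeasured counting error.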
